A study of Homo sapiens with 2 samples.

Results

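The cells described here are 206 UMUC3 cells of the control library that carried at least 2 unique molecular identifiers (UMIs, each standing for a captured transcript) of the long noncoding RNA TMEM132D-AS1 and 0 of the Golgi mannosidase gene MAN1A1. They are called subclone-like cells. They were set against 2272 main control cells of the same library, which had 0 UMIs of TMEM132D-AS1 and at least 2 of MAN1A1. The subclone-like cells made up 4.70% of the 4385 called control cells (exact Clopper-Pearson 95% interval 4.09 to 5.37), the main cells made up 51.8% (50.3 to 53.3), and 1907 cells (43.5%) met neither rule. Both libraries of the series together held 7057 called cells. The members were chosen by measured values of TMEM132D-AS1 and MAN1A1, so the levels of these genes are description only. SPANXB1 and FAM133A were known from earlier work on these files to part the same cells, so their values are no independent support for the grouping.

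UMUC3 is an established human bladder carcinoma line. Cells with genotype control and cells with a GANAB knockdown were placed in the bladders of C57 nude mice, which lack mature T cells, and grew there for 14 days. Each genotype gave 1 library of single-cell messenger RNA counts, and the labels name neither the agent of the knockdown nor the number of mice. With 1 library per genotype, and with cells that are not replicates, no test across samples was possible. Every interval below covers counting error alone, and the words higher and lower compare summed cells within the control library unless another library is named.

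A cell line or tumour can hold sublines that descend from different ancestor cells and keep different sets of active genes and different chromosome copy numbers. Cancer-testis genes such as SPANXB1 and FAM133A are normally active in male germ cells and are switched on in a patchy manner in tumours, and many of them are held silent in other tissues by methylation of CG pairs near their start. MAN1A1 trims mannose from N-glycans in the Golgi, downstream of the endoplasmic reticulum (ER) glucosidase II that GANAB and PRKCSH encode. CDH2, EDIL3 and MME, described further below, act at the cell surface or in the matrix around the cell.

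The 250 bases upstream of the annotated start are shown for 3 of the genes that part the cells, so that their very different content of CG pairs, in capitals, can be seen. The sequences are placed by RefSeq starts on GRCh38.p14 and run 5′ to 3′ on the strand of the gene. The GENCODE positions used elsewhere start FAM133A at 93674013 and SPANXB1 at 141002591. By these starts, much of the FAM133A window and the last bases of the SPANXB1 window lie inside the gene. SPANXB1 lies on the plus strand at chrX:141002344-141002593, FAM133A on the plus strand at chrX:93673956-93674205, and MAN1A1 on the minus strand at chr6:119349762-119350011.
SPANXB1: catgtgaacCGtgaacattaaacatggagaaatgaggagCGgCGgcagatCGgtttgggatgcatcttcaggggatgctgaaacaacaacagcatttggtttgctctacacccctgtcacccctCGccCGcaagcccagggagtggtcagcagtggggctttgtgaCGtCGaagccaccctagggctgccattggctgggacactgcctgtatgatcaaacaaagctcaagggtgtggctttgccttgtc
FAM133A: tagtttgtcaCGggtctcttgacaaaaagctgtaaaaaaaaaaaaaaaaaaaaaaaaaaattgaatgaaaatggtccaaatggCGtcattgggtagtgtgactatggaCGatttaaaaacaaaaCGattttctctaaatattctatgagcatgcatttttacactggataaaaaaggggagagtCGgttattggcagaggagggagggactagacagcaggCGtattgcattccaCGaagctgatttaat
MAN1A1: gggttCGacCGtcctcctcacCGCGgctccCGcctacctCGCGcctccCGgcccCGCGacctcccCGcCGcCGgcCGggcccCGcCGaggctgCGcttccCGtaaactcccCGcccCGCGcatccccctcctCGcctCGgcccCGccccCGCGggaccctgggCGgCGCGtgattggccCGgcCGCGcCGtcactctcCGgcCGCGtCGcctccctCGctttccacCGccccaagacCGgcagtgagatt
SPANXB1 had 8 CG pairs in this window, FAM133A had 7 and MAN1A1 had 40, beside a median of 11 over 27305 promoters of the same length. Of all promoters, 46.2% had at most as many as SPANXB1, 44.2% at most as many as FAM133A, and 2.06% at least as many as MAN1A1. Methylation was not measured in this series.

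GANAB, the targeted gene of the series, was at 133 CPM in the subclone-like cells (95% Poisson interval 126 to 140) and at 124 in the main cells (122 to 126). CPM are the UMIs of a gene summed over the cells of a group and scaled to a common total, so that groups of different size can be compared. The log2 ratio of subclone-like over main cells was 0.09 (exact conditional binomial 95% interval 0.01 to 0.17). PRKCSH, the partner subunit, stood at 75.3 and 79.3 CPM. Control cells that shared the marker pattern of most knockdown cells thus held GANAB close to the level of the main control cells, 1.07-fold apart, whereas the 1909 knockdown cells that met the subclone-like rule had 37.8 CPM.

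TMEM132D-AS1 (ENSG00000249196; GRCh38 chromosome 12, 129109629 to 129113294) was at 157 CPM in the subclone-like cells, with a median of 7 UMIs per cell, quartiles of 4 and 11 and a highest value of 27. MAN1A1 (ENSG00000111885; chromosome 6, 119177209 to 119349761) was at 130 CPM in the main cells, with a median of 5 UMIs per cell, quartiles of 3 and 9 and a highest value of 53. TMEM132D-AS1 lies antisense inside TMEM132D, which had 0 UMIs in both groups. No source used here states whether the counting used strand, without which reads of these 2 genes cannot be told apart. The related mannosidase gene MAN1A2 was at 62.7 CPM in subclone-like and 67.8 in main cells, and no run of 31 bases was shared between the transcripts of MAN1A1 and MAN1A2.

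The 13 subclone-like cells with exactly 2 UMIs of TMEM132D-AS1 had SPANXB1 at 88.4 CPM, FAM133A at 72.2 and EDIL3 at 16.2. The 23 cells just outside, with 1 UMI of TMEM132D-AS1 and 0 of MAN1A1, had SPANXB1 at 145, FAM133A at 169 and EDIL3 at 51.8. A further 15 cells with at least 2 UMIs of TMEM132D-AS1 and 1 of MAN1A1 had SPANXB1 at 194, FAM133A at 101 and EDIL3 at 38.6. Summed, both of the last sets were high in FAM133A and low in EDIL3 beside the main cells (12.2 and 148), as the members were. The 19 cells with 1 UMI of TMEM132D-AS1 and at least 1 of MAN1A1 carried the main pattern, with SPANXB1 at 0, FAM133A at 11.8 and EDIL3 at 136.

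A total of 20 control cells had at least 2 UMIs of both genes. Their median depth was 68894.5 UMIs, 7 of them exceeded 80000 UMIs, and their levels lay between the groups, with SPANXB1 at 72.6 CPM, EDIL3 at 93.3 and MME at 100 (31.2 in subclone-like and 171 in main cells). Whether they were droplets with more than 1 cell was not tested. Of the unassigned cells, 1081 had 0 UMIs of both genes and a median depth of 38208 UMIs, and their levels were nearer to the main than to the subclone-like cells in SPANXB1 (0.594 CPM), FAM133A (22.6), EDIL3 (109) and CDH2 (35.4). They were not equal to the main cells. FAM133A, SEMA3A (11.0 CPM), SFRP1 (10.2), IFI44 (12.2), SOX4 (45.5), TGM2 (61.3), GNG11 (24.1), PHGDH (27.2) and NRG1 (43.7) were, like SPANXB1, more than 1.5-fold above their main level in these 1081 cells. VGF (111), KYNU (20.7), PEG10 (61.9) and CREB5 (32.7) were more than 1.5-fold below it. All of these genes thus differed less from the subclone-like cells when set against the 1081 cells, and the log2 ratio of NRG1, for example, was 0.79 in place of 1.91.

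Depth and RNA quality differed little between the groups. Median depth was 48920 UMIs in subclone-like and 47150 in main cells, with medians of 6113.5 and 6197 detected genes and 1.75% and 1.65% mitochondrial UMIs. The groups summed to 10795061 and 118827977 UMIs. No barcode of a subclone-like cell and 3 barcodes of main cells were also called cells in the knockdown library. All 12 UMUC3 markers reached 10 CPM in subclone-like cells and 11 of 12 did in main cells. Among markers of host or other cell types, all 8 endothelial markers and 11 of 12 T and NK cell markers (all but CCL5) were at 0 in subclone-like cells. Of 10 fibroblast markers 7 were detected there, 2 of them at 10 CPM or more, while DCN, LUM and DPT were at 0. Summed fibroblast markers were at 68.8 CPM in subclone-like and 27.9 in main cells, led by THY1 at 38.1 and 14.6, and at least 3 of them were seen in 2 subclone-like and 29 main cells. G0S2 of neutrophils (60.9 CPM), CD68 of macrophages (41.0) and MYLK of smooth muscle (31.2) were also present in subclone-like cells, while CSF3R, CD14, CSF1R and DES were at 0. The sums were 61.0 and 79.8 for neutrophil markers, 41.6 and 26.3 for macrophage markers, 25.3 and 0.985 for T and NK cell markers, 37.8 and 65.2 for smooth muscle, 1.02 and 0.943 for urothelium, 0.926 and 0.244 for B and plasma cells, and 0.556 and 1.56 for erythroid cells. The part of other cell types in the results was not tested.

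**Figure D1:**
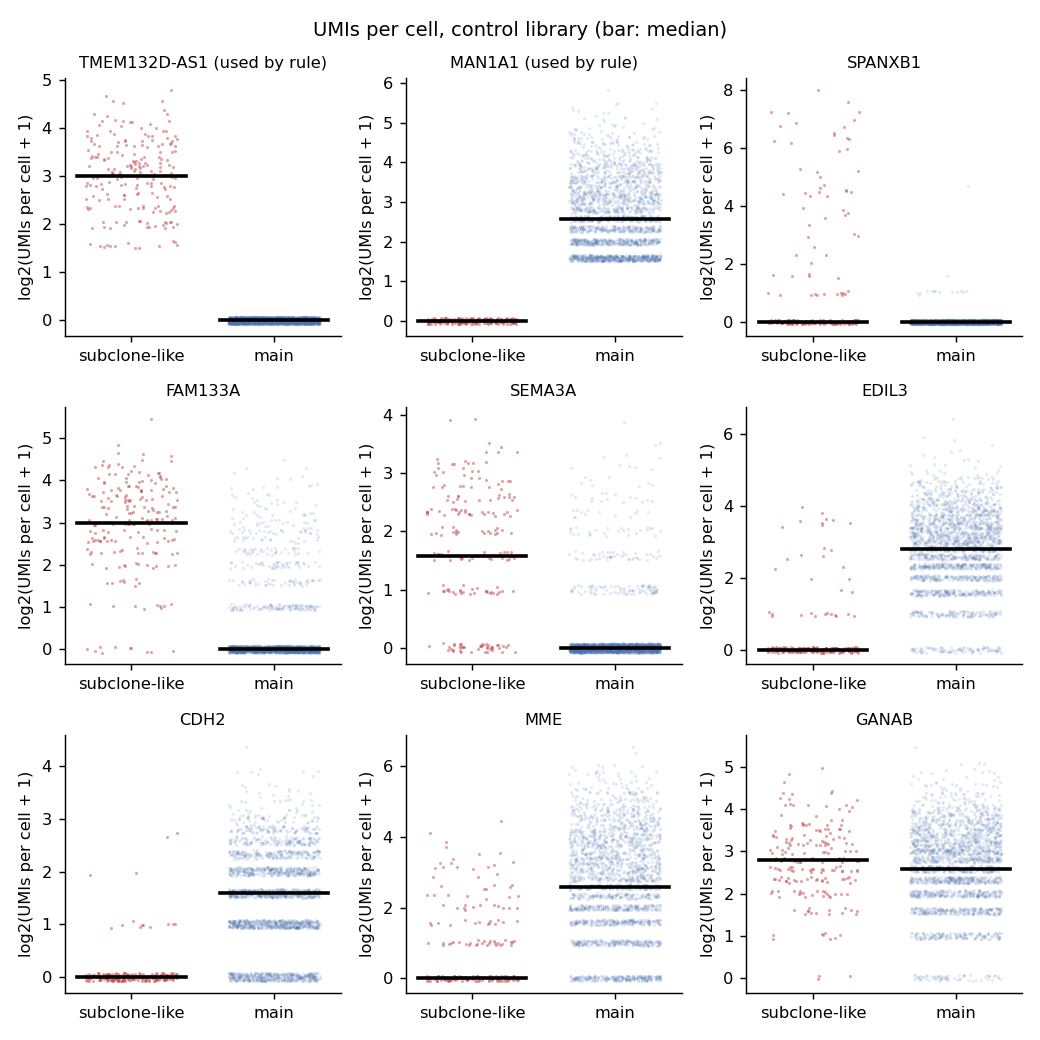
UMIs per cell of 9 genes in the 206 subclone-like (red) and 2272 main (blue) control cells, as log2(UMIs + 1), 1 point per cell with a small jitter and a bar at the median. TMEM132D-AS1 and MAN1A1 set the groups. FAM133A and SEMA3A were high in most subclone-like cells, SPANXB1 in a minority of them, EDIL3, CDH2 and MME in most main cells, and GANAB overlapped between the groups.

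Over 7862 genes with at least 10 CPM in either group, 502 (6.39%) were higher and 586 (7.45%) lower in the subclone-like cells by a rule of size: at least 1.5-fold apart, with 1 outside the counting interval. Most expression was alike, since 4395 genes (55.9%) lay within 1.2-fold and the median log2 ratio was -0.04. At the far ends 41 genes were at least 4-fold higher and 40 at least 4-fold lower. The 15 genes named per direction are those with the largest ratios among genes of at least 50 CPM in the higher group, and their values describe the extremes of this comparison. RNA of droplets with 10 to 100 UMIs, which approximates free RNA, held each of the 15 higher genes above its level in main cells and each of the 15 lower genes above its level in subclone-like cells. Shares of cells with a UMI in the group where a gene was low are therefore not read as expression.

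**Figure D2:**
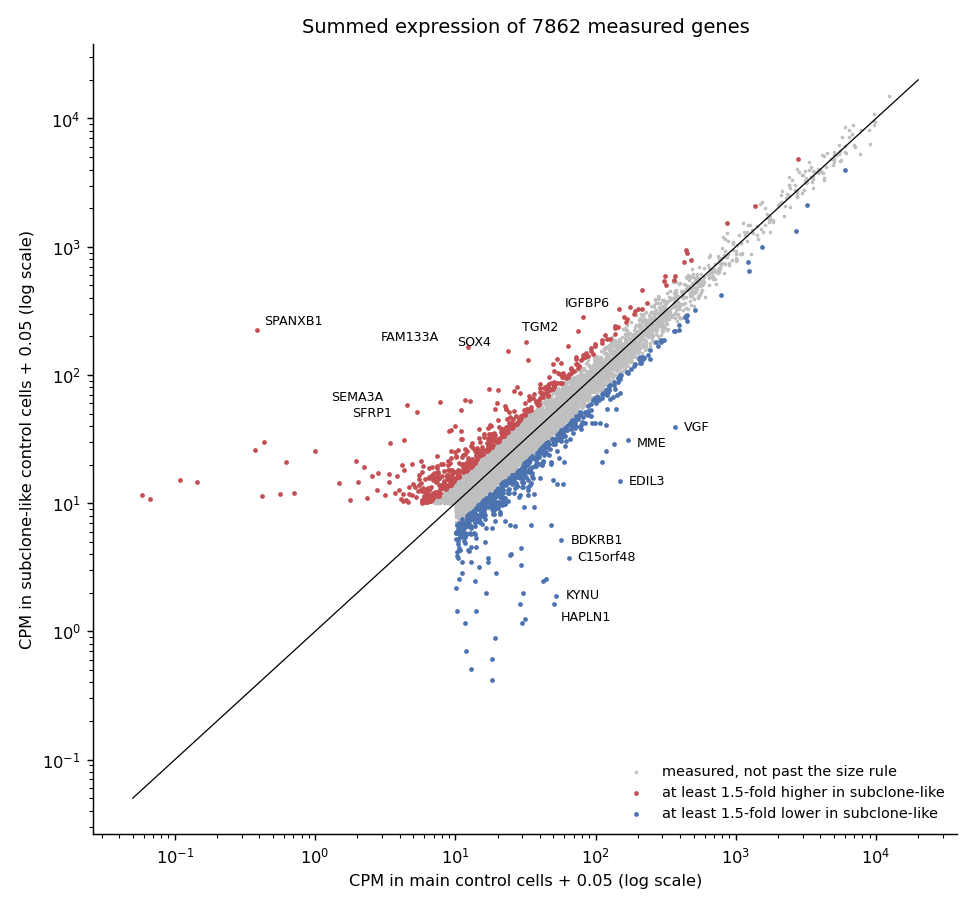
Summed CPM + 0.05 of each of the 7862 measured genes in main (x) and subclone-like (y) control cells, both on log axes, with genes past the size rule in red (502 higher) and blue (586 lower) and the line of equal levels in black. SPANXB1 stands alone at the upper left, with 224 and 0.337 CPM, and HAPLN1, KYNU, C15orf48 and BDKRB1 lie lowest among the labelled genes.

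The genes highest in the subclone-like cells were led by cancer-testis genes of the X chromosome. SPANXB1 (ENSG00000227234; chromosome X, 141002591 to 141003706), a sperm protein gene, was at 224 CPM (215 to 233) in subclone-like and 0.337 (0.240 to 0.458) in main cells, a log2 ratio of 9.38 (8.93 to 9.87). It was seen in 29.6% of the subclone-like cells and 0.660% of the main cells. After each cell was thinned to 15000 UMIs the shares were 24.8% and 0.220%. The highest cell held 262 UMIs, and the top 10% of cells held 85.6% of all SPANXB1 UMIs of the group, so this transcript was very uneven even among the subclone-like cells. It was at 85.4 CPM in subclone-like cells scored G1 and at 351 in those scored S or G2M.

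FAM133A (chromosome X, 93674013 to 93712274) was far more even. It was at 166 CPM (158 to 173) in subclone-like and 12.2 (11.6 to 12.9) in main cells, a log2 ratio of 3.76 (3.66 to 3.86), and was seen in 95.1% and 16.02% of cells. The median subclone-like cell held 7 UMIs with quartiles of 4 and 12. The median main cell held 0. Of the 8 measured members of the cancer-testis list, 3 were higher (SPANXB1, FAM133A and PRAME) and 1 lower (MAGEA10, 38.5 and 71.8 CPM), beside 6.39% higher and 7.45% lower of all measured genes, and the list median was -0.06. PRAME was at 14.6 CPM in subclone-like cells and 0.0926 in main cells, and was seen in 47.6% and 0.308% of cells. MAGEA4 was at 100.05 and 146 CPM without passing the size rule, so the higher levels did not extend across the list.

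Related copies were compared because reads can be split among them. Of 439 runs of 31 bases in SPANXB1 transcripts, 11.4% also occurred in SPANXC, 4.10% in SPANXD and 23.5% in SPANXA1. SPANXD was at 5.84 CPM in subclone-like and 0.0168 in main cells, SPANXC at 3.98 and 0, and SPANXA1 at 0 in both. FAM133B, which shared no such run with FAM133A, went the other way at 40.7 and 78.1 CPM. These relatives, PRAME and the other genes below that fall outside the naming rule were chosen after their values were seen.

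Of the other leading genes, 5 encode secreted proteins, and SEMA3A and SFRP1 had the next largest ratios after FAM133A. SEMA3A, a secreted repellent of growing axons, was at 58.5 CPM (54.0 to 63.2) in subclone-like and 4.45 (4.08 to 4.85) in main cells, and was seen in 78.6% and 8.98% of them. SFRP1, a secreted inhibitor of Wnt signalling, was at 51.7 and 5.25. NRG1, a ligand of the ERBB receptors, was at 75.6 and 20.05. The insulin-like growth factor binding proteins IGFBP4 and IGFBP6 were at 78.0 against 17.3 and at 281 against 81.4 CPM. SEMA3A was thus high in most subclone-like cells, while the top 10% of cells held 59.5% of the SFRP1 and 57.6% of the NRG1 UMIs.

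The rest of the 15 genes are given next, most of them acting inside the cell. SOX4, a developmental transcription factor, was at 153 CPM (146 to 161) and 23.6 (22.7 to 24.5). Its level was 276 and 41.2 in G1 cells and 40.8 and 10.3 in S or G2M cells, so it was higher in subclone-like cells in both phases. TGM2, a transglutaminase that crosslinks proteins, was at 180 and 31.7, with a median of 5 UMIs per subclone-like cell and 0 per main cell. IFI44, an interferon-induced gene, was at 62.0 and 7.78. NR4A1, an immediate early nuclear receptor, was at 130 and 33.1. PHGDH, the enzyme that opens serine synthesis, was at 62.3 and 12.7. The G protein gamma subunit gene GNG11 (63.3 and 11.7), the LIM domain gene FHL1 (53.1 and 11.0) and APBB2, which encodes a binding partner of the amyloid precursor protein (60.1 and 19.9), completed the 15. At least 1 UMI of FHL1 was seen in 34.5% and of TGM2 in 38.3% of main cells, but free RNA held them at 13.4 and 49.9 CPM, above the main cells, so these shares are not read as expression.

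Several of the genes lowest in the subclone-like cells were close to absent from them. HAPLN1, which links hyaluronan to proteoglycans, was at 1.57 CPM (0.917 to 2.52) in subclone-like and 50.2 (49.0 to 51.5) in main cells, a log2 ratio of -5.00 (-5.78 to -4.32). KYNU, the kynureninase of tryptophan breakdown, was at 1.85 and 52.5, and was seen in 4.85% and 62.2% of cells. C15orf48, a mitochondrial protein gene of inflammatory states, was at 3.71 and 64.1, and the bradykinin receptor gene BDKRB1 at 5.09 and 57.1. EDIL3, a secreted ligand of integrins, was at 14.8 CPM (12.6 to 17.3) and 148 (146 to 150). It was seen in 16.02% of subclone-like and 95.8% of main cells, and the median main cell held 6 UMIs. Free RNA held EDIL3 at 137 CPM, well above the subclone-like cells.

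VGF, a precursor of neuropeptides, was at 39.3 CPM (35.6 to 43.2) in subclone-like and 369 (366 to 373) in main cells. MME, the membrane peptidase neprilysin, was at 31.2 and 171, and at 47.1 and 211 among S or G2M cells. CD82, a tetraspanin, was at 25.4 and 118, MARCKS, a membrane substrate of protein kinase C, at 28.9 and 134, and BASP1, another membrane-bound protein of growing neurites, at 41.8 and 108. PEG10, an imprinted gene derived from a retrotransposon, was at 20.9 and 110 CPM, CREB5 of the CREB transcription factors at 14.1 and 58.1, and DOCK4, an activator of small GTPases, at 14.2 and 52.9. CCL2, a monocyte chemoattractant, was at 40.4 and 119, and DSE, an epimerase of dermatan sulfate, at 20.9 and 59.5. Free RNA held VGF at 315, MME at 151, CCL2 at 170 and BASP1 at 91.4 CPM, all above the subclone-like cells. All 15 lowest genes were also lower in subclone-like cells than in the 1081 cells with 0 UMIs of both rule genes. EDIL3 stood there at 109, MME at 142 and HAPLN1 at 52.8. VGF stood at 111, and its log2 ratio was -1.50 against these cells and -3.23 against the main cells. HAPLN1 and CCL2 (123) were not below their main levels in these cells.

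**Figure D3:**
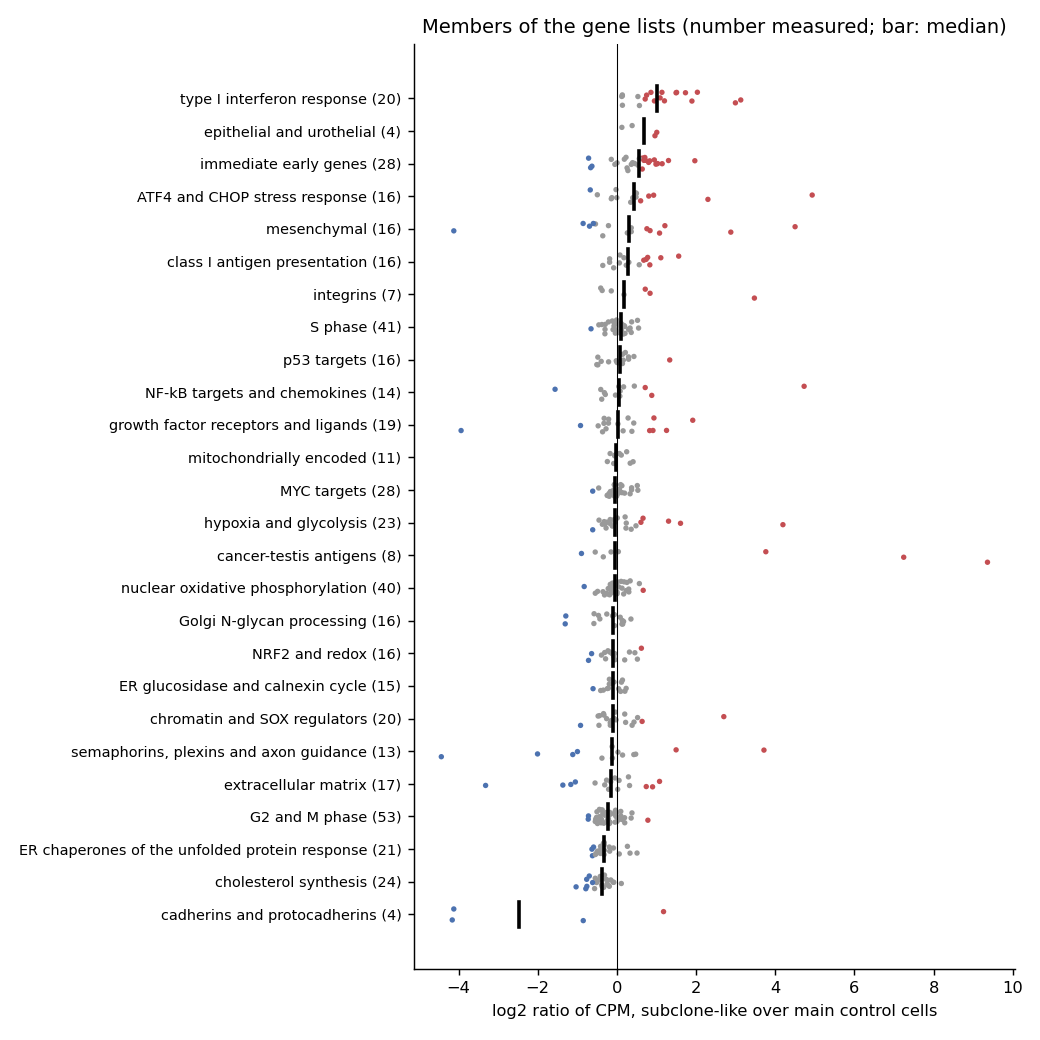
Log2 ratio of CPM, subclone-like over main control cells, of every measured member of 26 gene lists, with the number measured in brackets and the list median as a black bar. Red and blue points lie at least 1.5-fold from 0 on either side. The interferon list lies wholly to the right of 0, with a median of 1.02, and the cholesterol list has 23 of its 24 members left of 0, with a median of -0.38.

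Type I interferon genes were higher as a list. Of 20 measured members, 14 were higher and none lower, beside 6.39% and 7.45% of all measured genes, and the list median was 1.02 against -0.04 over all genes. Members needed 10 CPM in either group, and IFI44, IFITM2, IFIT1, IFIT2, IFIT3 and STAT2 reached it in subclone-like cells alone. The count of higher members leans in part on this filter, as the other symbols of the list were not measured. IFITM2 and IFITM3, membrane proteins that block viral entry, were at 29.6 against 3.39 and at 938 against 441 CPM, and the ubiquitin-like ISG15 was at 234 and 162 without passing the size rule. IFIT3, IFIT2 and IFIT1 were at 20.01 against 4.90, 12.0 against 3.64 and 14.0 against 4.93. IFI6 was at 83.1 and 45.8. The remaining higher members were IFI44, BST2, IFI27, OAS1, IFIT5, IFI35, ISG20 and OAS3. The transducer STAT2 (10.7 and 7.21) was not past the rule. Summed over the list, the middle 50% of subclone-like cells lay between 972 and 2315 CPM and those of main cells between 455 and 1199, so the groups overlapped. IFIT2 was uneven, with 83.8% of its subclone-like UMIs in the top 10% of cells. Within G1 cells the list median was 0.98 and within S or G2M cells it was 0.80, where IFI27 turned to a log2 ratio of -0.60.

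A shared promoter motif was looked for because these genes moved together. Factors activated by interferon bind elements with paired GAAA units, searched here as GAAA, any 2 bases and GAAA again, on either strand of the 250 upstream bases. Of 34 list members 24 had a RefSeq promoter, and 15 of those held the motif, beside 3.07% of 27305 promoters. Of 12 higher members with a promoter, 10 held it, and OAS1 and IFI35 had no match in this window. Windows of 3 members are shown with the matched bases in capitals. IFI44 lies on the plus strand at chr1:78649539-78649788, IFI6 on the minus strand at chr1:27672193-27672442 and IFIT3 on the plus strand at chr10:89327747-89327996.
IFI44: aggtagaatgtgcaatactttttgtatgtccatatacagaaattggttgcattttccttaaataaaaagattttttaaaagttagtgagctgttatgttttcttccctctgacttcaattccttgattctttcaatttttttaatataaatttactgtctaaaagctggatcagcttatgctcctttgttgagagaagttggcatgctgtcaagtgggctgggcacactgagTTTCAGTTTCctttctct
IFI6: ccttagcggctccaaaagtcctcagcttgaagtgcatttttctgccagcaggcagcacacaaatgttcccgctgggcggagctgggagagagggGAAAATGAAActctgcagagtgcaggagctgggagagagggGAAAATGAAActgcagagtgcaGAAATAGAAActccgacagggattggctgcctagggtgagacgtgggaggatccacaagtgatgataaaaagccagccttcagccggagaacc
IFIT3: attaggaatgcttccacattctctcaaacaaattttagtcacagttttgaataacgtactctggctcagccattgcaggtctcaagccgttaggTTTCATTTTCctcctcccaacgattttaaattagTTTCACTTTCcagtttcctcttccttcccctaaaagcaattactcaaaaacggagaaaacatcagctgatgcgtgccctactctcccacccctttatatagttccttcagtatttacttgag
IFI44 held 1 match, IFI6 held 3 and IFIT3 held 2. The 3 genes differed in the size of their ratio, at 7.96-fold, 1.81-fold and 4.09-fold higher in subclone-like cells. Over these 3 genes the ratio was smaller where there were more matches, and no relation is read from so few.

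Antigen presentation by major histocompatibility complex class I had 6 of 16 measured members higher and none lower, beside 6.39% and 7.45% of all measured genes, with a median of 0.27. They included the shared light chain B2M (1532 and 861 CPM), the heavy chains HLA-B (463 and 215), HLA-C and HLA-F, and the proteasome subunit PSMB8. HLA-B was seen in every subclone-like cell and in 81.0% of main cells. The peptide transporter genes TAP1 (23.3 and 19.9) and TAP2 (35.7 and 31.6) were not past the rule. HLA genes have near-identical copies, so single-gene values are uncertain. The interferon motif stood in 7 of the 14 promoters found for this list, beside 3.07% of all promoters. Of 5 higher members with a promoter, 2 held it (HLA-F and B2M), while HLA-B, PSMB8 and HLA-C had no match. Among NF-kB targets and chemokines 3 of 14 were higher (CXCL2, CXCL8 and CCL5) and CCL2 was lower, with a median of 0.06. CCL5 came from 6 of the 206 cells, all its UMIs lay in G1 cells, and it was at 25.3 and 0.951 CPM.

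Immediate early genes, which respond within minutes to growth factors or handling, had 13 higher and 3 lower members among 28, beside 6.39% and 7.45% of all measured genes, and a median of 0.55. The share of lower members was near that of all genes. KLF2, a zinc finger transcription factor, was at 122 and 49.6 CPM, the phosphatase gene DUSP1 at 892 and 450, and the ERK pathway inhibitor SPRY4 at 39.8 and 18.1. FOS was at 363 and 232 and JUN at 837 and 868. The lower members were IER3 (74.1 and 122), KLF6 (324 and 513) and NR4A2 (71.2 and 110), the last a close relative of NR4A1. The top 10% of subclone-like cells held 56.6% of the NR4A1 UMIs and 54.0% of those of FOS. FOS was not higher among S or G2M cells, where its log2 ratio was -0.0084. The cyclic AMP motif TGACGTCA stood in 2 of the 23 promoters found for this list, beside 1.77% of all.

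Few cell adhesion genes were measured. Among 4 measured cadherins and protocadherins, CDH2, PCDH10 and FAT1 were lower and PCDH7 higher, beside 7.45% lower and 6.39% higher of all measured genes, with a median of -2.49. CDH2 (ENSG00000170558; chromosome 18, 27950966 to 28177446), the N-cadherin of mesenchymal and neural cells, was at 2.50 CPM (1.65 to 3.64) in subclone-like and 44.3 (43.1 to 45.5) in main cells, and was seen in 6.80% and 80.4% of them. PCDH10 was at 1.57 and 28.98 and PCDH7 at 22.8 and 10.1. Of 7 integrins 3 were higher and none lower, namely ITGA2, a collagen receptor subunit (21.2 and 1.91), the fibronectin receptor subunit ITGA5 (17.3 and 9.72), and ITGA6 (78.2 and 47.6), while the common beta subunit ITGB1 was at 846 and 747 and the integrin median was 0.18.

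Of 16 measured mesenchymal genes 6 were higher and 4 lower, beside 6.39% and 7.45% of all measured genes, with a median of 0.31. TAGLN, an actin-binding protein, was at 11.7 and 0.513 CPM, SPARC at 107 and 50.8, the receptor AXL at 96.9 and 57.4, and S100A4 and ITGA5 were also higher. FN1 was at 14.5 and 1.97, but 96.8% of its subclone-like UMIs lay in the top 10% of cells, and it was at 0.888 and 1.21 among S or G2M cells. CDH2, ACTA2, TPM2 (762 and 1233) and LGALS1 (3961 and 5986) were lower, and VIM, the mesenchymal filament, was at 4157 and 3465. The epithelial keratins KRT18 (341 and 175) and KRT7 (13.3 and 6.66) were the 2 of 4 measured epithelial genes that were higher, with a median of 0.67 for that list. A lower CDH2 thus stood beside higher levels of some mesenchymal and some epithelial genes.

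Matrix genes had 4 lower and 3 higher members among 17, beside 7.45% and 6.39% of all measured genes, and a median of -0.16. The lower members were EDIL3, the lysyl hydroxylase PLOD2 (53.8 and 139 CPM), COL18A1 (13.3 and 30.0) and the membrane protease MMP14 (31.8 and 65.9). The higher members were SPARC, COL6A2 (24.0 and 14.4) and COL1A1, whose UMIs came from 2.91% of subclone-like cells. COL1A1 is also a fibroblast marker, and free RNA held it at 81.0 CPM.

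Axon guidance genes had 2 of 13 higher, SEMA3A and SEMA4B (19.0 and 6.75 CPM), and 4 lower, with a median of -0.11. Over all measured genes 6.39% were higher and 7.45% lower. ROBO2, a receptor for SLIT repellents, was at 0.834 and 19.1 and was seen in 2.91% and 52.6% of cells. Its relative ROBO1 was at 15.1 and 32.8, and the ephrins EFNB2 and EFNA5 were at 6.58 against 26.6 and 13.6 against 27.3. Of 19 growth factor ligands and receptors 5 were higher (NRG1, TGFBR2, HBEGF, FGF2 and BMPR2) and 2 lower (KITLG and FGF5), with a median of 0.03. KITLG, the ligand of the KIT receptor, was at 1.95 CPM in subclone-like and 30.5 in main cells and TGFBR2, a receptor of transforming growth factor beta, at 54.5 and 22.9. The receptor genes EGFR (25.1 and 34.9), MET (78.2 and 98.2) and FGFR1 (50.3 and 60.9) were not past the rule.

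Of the glycan pathway around GANAB few measured members passed the rule. In the ER glucosidase and calnexin cycle list 1 of 15 members was lower, the cargo receptor LMAN1 (100 and 152 CPM), none was higher, and the median was -0.11. That share of lower members was near the 7.45% of all measured genes. LMAN1 lies in the chromosome 18 stretch described below, and it failed the rule under several alternative settings. The lectin chaperones CALR (413 and 549) and CANX (413 and 375) were not past the rule. In the Golgi N-glycan list, measured without MAN1A1, 2 of 16 were lower, MAN2A1 (13.8 and 34.3), the mannosidase that acts after MAN1A1, and GMDS (22.4 and 55.0), which starts GDP-fucose synthesis. None was higher and the median was -0.09, beside 6.39% higher and 7.45% lower of all measured genes. ER chaperones of the unfolded protein response had 3 of 21 lower (DNAJC10, PDIA4 and HERPUD1) and none higher, with a median of -0.32, and HSPA5, the main ER Hsp70, was at 737 and 842. Against the cells with 0 UMIs of both rule genes, the medians of these lists in turn were 0.03, 0.02 and -0.21. The log2 ratio of MAN2A1 was -0.60 there, in place of -1.31.

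Metabolic lists showed small shifts around a few large ones. The cholesterol synthesis list had 6 of 24 lower, MVD, HSD17B7, MSMO1 and HMGCS1 among them, none higher and a median of -0.38, beside 7.45% lower and 6.39% higher of all measured genes. MVD of the mevalonate pathway was at 17.1 and 35.1 CPM and HMGCS1, which makes HMG-CoA, at 219 and 371. FDPS was at 163 and 172. The amino acid stress list of ATF4 and CHOP had 5 higher members of 16, 1 lower (DDIT4, 93.5 and 149) and a median of 0.44, and 3 of the higher members are enzymes of serine and glycine synthesis: PHGDH, PSAT1 (42.3 and 24.3) and SHMT2 (64.0 and 33.7). The others were ASNS (34.9 and 23.1) and NUPR1 (11.4 and 0.370). PSPH, the last step of serine synthesis, was at 7.503 and 10.6.

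The hypoxia and glycolysis list had 5 higher members and 1 lower among 23, beside 6.39% and 7.45% of all measured genes, and its median was -0.05. The glucose transporter SLC2A3 was at 12.0 and 0.656 CPM, the lactate exporter SLC16A3 at 17.4 and 5.73, and the other higher members were ANGPTL4, ENO2 and ADM. SLC2A1 was at 22.1 and 18.8, and LDHA, the lower member, at 295 and 451. Among NRF2 targets 1 of 16 was higher (TXN, 2096 and 1366) and 2 lower, including AKR1B1 (71.5 and 118). Nuclear oxidative phosphorylation genes had 1 of 40 higher (NDUFB10) and 1 lower (ATP5F1A, 222 and 394), and 0 of 11 mitochondrially encoded genes was past the rule. ATP5F1A lies in the low chromosome 18 stretch described below, as LMAN1 does. Members of other lists lie in such stretches too. MVD is in the low end of chromosome 16, and KRT7, KRT18 and ITGA5 are in a high window of chromosome 12. The part of position in the list counts was not tested.

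Fewer subclone-like than main cells were scored as cycling, though the intervals overlapped. With each cell thinned to 15000 UMIs, 40.3% of subclone-like (33.5 to 47.3) and 47.7% of main cells (45.6 to 49.7) scored as S or G2M. Unthinned cells gave 43.7% and 48.6%. In 8 and 77 cells the scores fell at most 0.02 from the boundary between phases, and free RNA also enters such scores, so no difference in cycling was read from them. S phase genes had 0 of 41 higher and 1 lower (NASP, 186 and 293 CPM), with a median of 0.09. Over all measured genes 6.39% were higher and 7.45% lower. G2 and M phase genes had 1 of 53 higher (CBX5, 148 and 86.1 CPM) and 2 lower (KIF2C and BUB1), with a median of -0.23. The interval of that median was -0.34 to -0.18. MKI67 (121 and 114 CPM) and TOP2A (158 and 147), which fall outside the naming rule, went the other way. In the list of MYC targets 1 of 28 was lower (LDHA) and none higher, and among p53 targets 1 of 16 was higher (PLK2, 72.7 and 28.9) and none lower. The list of chromatin and SOX regulators had SOX4 and SOX9 (87.0 and 56.0) higher and HMGN5 (6.58 and 12.5) lower of 20.

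Differences also followed position along the chromosomes. Measured genes were taken in order of their GRCh38 starts in windows of about 50, which gave 157 windows of 25 to 74 genes with medians between -0.70 and 0.55 and an overall median of -0.06. The lowest window held 50 genes with starts from 8682411 to 27494576 on the short arm of chromosome 11, of which 34 were lower and 1 higher, and only 4 had a ratio above 0. The next window there, from 28020620 to 47716517, had a median of -0.58 with 24 of 50 lower, and it contains CD82. The end of chromosome 16, from 85690084 to 90004865, was at -0.68 with 16 of 26 lower. On chromosome 18, the 60 genes from 35332212 to 80109031 were at -0.65 with 39 lower and none higher. The start of chromosome 9, from 14521 to 33461441, was at -0.60 with 26 of 50 lower.

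Other stretches lay above the rest. The highest window, on chromosome 12 from 55901413 to 63844293, had a median of 0.55 with 21 of 50 genes higher and none lower, and its neighbour from 49568218 to 55817919 was at 0.43 and contains IGFBP6 and NR4A1. On chromosome 16 the window from 2883186 to 15949577 was at 0.50, and on chromosome 9 that from 99222064 to 121074863 was at 0.46 with 19 of 50 higher and none lower. Low and high stretches thus stood on the same chromosomes 9 and 16. Altogether 10 windows lay below -0.3 and 12 above 0.3. Some window medians depended on the comparison. Against the cells with 0 UMIs of both rule genes, the chromosome 2 window from 99400475 to 127436207 went from -0.30 to 0.05. The chromosome 6 window from 82892398 to 110874770 went from -0.03 to 0.36. The low and high windows given above by position kept their sign there, with -0.53 in the lowest chromosome 11 window. DNA copy number was not measured in these files, and its part in these shifts was not tested.

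**Figure D4:**
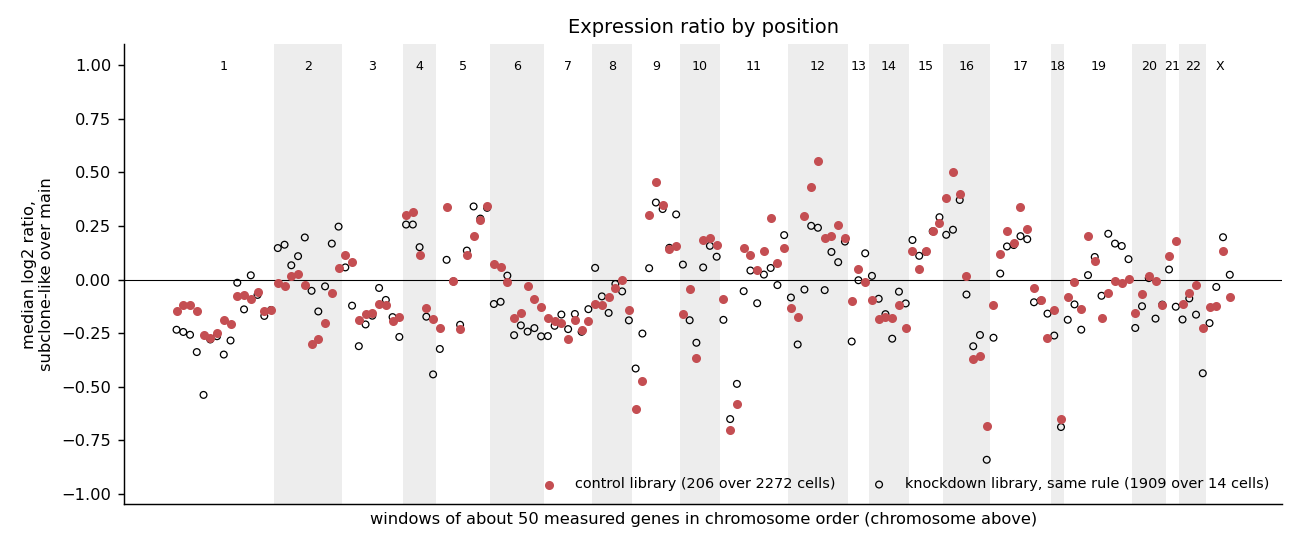
Median log2 ratio, subclone-like over main cells, in 157 windows of about 50 measured genes in chromosome order, for the control library (red, 206 over 2272 cells) and for the same rule in the knockdown library (open circles, 1909 over 14 cells). The low windows of chromosomes 9, 11, 16 and 18 and the high windows of chromosomes 9, 12 and 16 have the same sign in both.

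The share of UMIs in the lowest and highest windows was also taken in single cells. These windows were picked by the sums of the same cells, which favours the counts below. The counts describe the spread between cells and are no independent support. The chromosome 18 window took a median of 0.180% of the UMIs of a subclone-like cell (quartiles 0.152 and 0.207) and 0.293% of a main cell (0.253 and 0.326), and 204 of 206 subclone-like cells lay below the main median. The chromosome 12 window took 1.97% and 1.37%, and 203 of 206 lay above it. For the lowest chromosome 11 window 196 lay below (0.714% and 0.951%), for the end of chromosome 16 198 lay below (0.667% and 0.969%), and for the high window of chromosome 9 193 lay above (0.494% and 0.343%). The high window of chromosome 16 separated the cells less, with 159 above (0.167% and 0.126%).

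**Figure D5:**
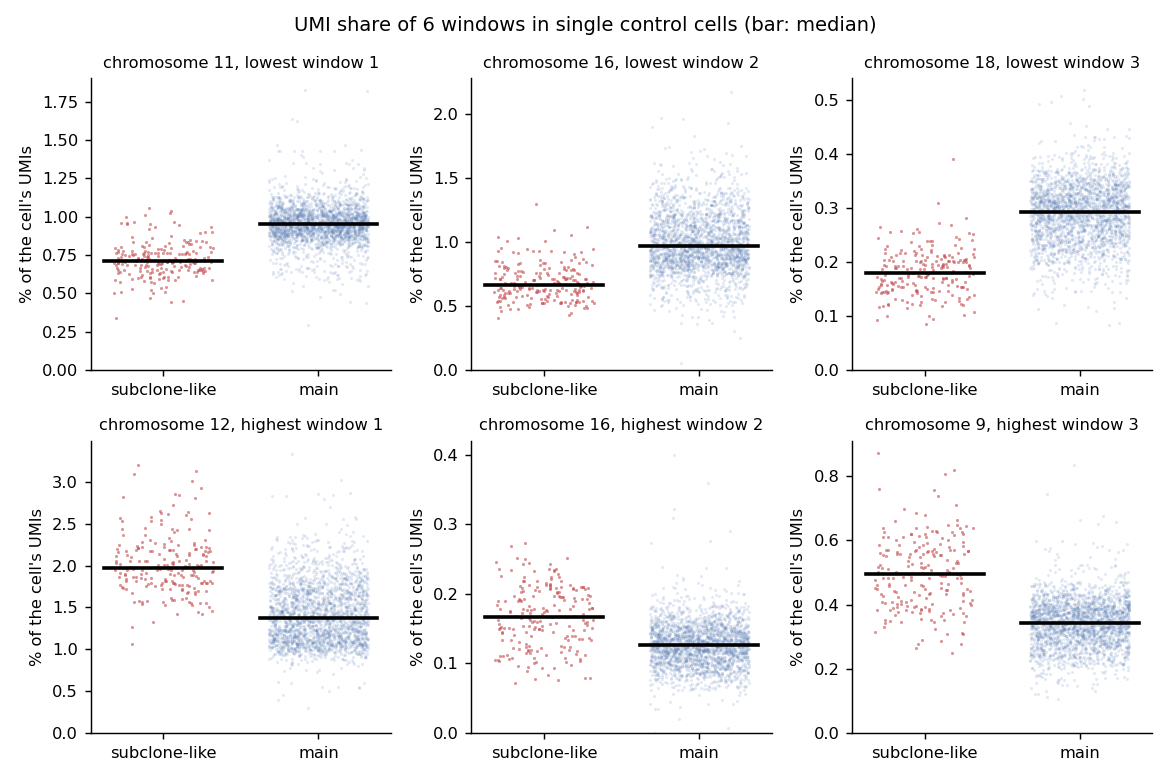
Share of each control cell's UMIs (%) that fell in the 3 lowest (top row) and 3 highest (bottom row) windows, 1 point per cell, subclone-like in red and main in blue, with a bar at the median. Of the 206 subclone-like cells, 204 lie below the main median in the chromosome 18 window and 203 lie above it in the chromosome 12 window, and the groups overlap in all 6.

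The same thresholds were applied to the knockdown library, whose cells were not used to form the groups above. Earlier work on these files had already shown likeness between the libraries in markers and by position, so the values below are description. Of its 2672 called cells, 1909 (71.4%) met the subclone-like rule and 14 (0.524%) the main rule, and the 14 summed to 676356 UMIs, which limits every ratio here. Across the 157 windows the medians in the 2 libraries correlated at a Pearson r of 0.837 and a Spearman rho of 0.827, given as a description of windows that share gene content and are not replicates. The 10 lowest windows were all below 0 and the 10 highest all above 0 in the knockdown library, for example -0.65 in the lowest chromosome 11 window and -0.69 on chromosome 18.

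All 15 leading higher genes and 14 of the 15 leading lower genes kept their direction there. SEMA3A was at 63.4 CPM in knockdown subclone-like and 8.87 in knockdown main cells, SOX4 at 223 and 38.4, MME at 4.80 and 140, KYNU at 0.126 and 31.05, and CDH2 at 1.16 and 41.4. HAPLN1 was the exception at 20.2 and 17.7. FAM133A (132 and 109), PHGDH (43.3 and 35.5) and BASP1 (56.8 and 72.5) differed less than in the control library, and their counting intervals included equal levels. SPANXB1 was at 247 and 51.7, and 3 of the 14 knockdown main cells held it. FAM133A was held by 7 of the 14, so these 14 cells did not match the control main cells in every marker. Their GANAB level was 82.8 CPM, between the control cells and the knockdown subclone-like cells. Among the lists, the interferon median was 1.502 and the immediate early median 1.01, whereas those of class I presentation (0.06), ATF4 and CHOP (-0.01) and the epithelial genes (-0.08) were near 0.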

How the data were processed

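Droplet libraries used the Chromium 3' v3 kit with 10000 cells loaded per channel, per the labels. The authors deposited UMI counts that had not been normalised, for 33538 genes and 6794880 barcodes in each library. Cell Ranger 3.1.0 and GRCh38 are named in the submitters' processing notes. Strand settings and the handling of mouse reads are not described in the sources used here.

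Barcodes with at least 15000 UMIs and at most 20% mitochondrial UMIs were called cells. No doublet caller was run. UMIs were summed over each cell group and scaled to the group total. Ratios carry exact conditional binomial 95% intervals, levels Poisson and shares Clopper-Pearson intervals, covering counting error only, and a ratio with counts near 0 is imprecise. Genes counted as measured had at least 10 CPM in either group, without TMEM132D-AS1 and MAN1A1. A weakly expressed gene could thus enter through the group where it was high alone, which favours calls past the size rule. Phases were scored with scanpy 1.11.5 after thinning. Positions came from GENCODE release 29 for 33456 genes. Calling and intervals were tested on simulated Poisson counts of group sums, the error that the intervals assume. The simulation held no single cells, so it could not test the effect of variation between cells.

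Named genes were TMEM132D-AS1, MAN1A1, SPANXB1, FAM133A, GANAB and PRKCSH, the 15 largest ratios per direction (0.5 counts added to each sum) with at least 50 CPM in the higher group, and up to 4 members of each list, 2 with the largest ratio on the side of its median and 2 with the highest mean level. Mitochondrially encoded genes, ribosomal pseudogene copies and names taken from clones were left out of the 15. Of 774 list symbols 773 were found. The members and the 26 lists were chosen with earlier results of these data known. Alternatives changed the cell limits, rule thresholds, minimum level, weighting, depth, phase and centring. A few list members are not reported by name, though the counts and medians cover them.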

Additional observations from a re-analysis of the deposited data

Results flagged for a closer look

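Of the named genes past the size rule in the control library, 3 were past it in the opposite direction in the knockdown library, and the difference between the libraries was not tested. FN1 had a log2 ratio of subclone-like over main cells of 2.88 in the control library and -1.71 in the knockdown library, where it was at 14.2 CPM in subclone-like and 45.8 in the 14 main cells. CXCL8 had 0.71 and -0.73, with 82.6 and 136 CPM in the knockdown library. NR4A2 had -0.63 and 1.41, with 80.7 and 29.6 CPM there. In the control library the top 10% of subclone-like cells held 96.8% of the FN1, 92.5% of the CXCL8 and 73.0% of the NR4A2 UMIs.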

How the results depend on the processing

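For genes higher in subclone-like cells and genes lower in subclone-like cells, the counts of 502 and 586 became 145 and 159 at a minimum of 50 CPM, and 152 and 151 at a ratio of at least 2, both settings that admit fewer genes by construction. Against the 1081 cells with 0 UMIs of both rule genes, a comparison chosen after seeing the data, they were 582 and 296. The cause was not tested. Over the other settings higher genes numbered 482 to 691 and lower genes 443 to 813, and centring on the median gene gave 576 and 515. The share of subclone-like cells ranged from 4.40% to 5.22%. The share of S or G2M cells in main cells was 50.1% when main cells needed at least 4 MAN1A1 UMIs. Across 10 settings the 188 named genes, 138 of them past the rule, gave 1543 values counted as the same. For genes past the rule, the same means that the value still passed it in its direction. For the other genes it means that the ratio stayed inside its original counting interval. Among genes past the rule 117 values no longer passed it and 7 reversed. Among the other genes 213 values fell outside that interval. The reversals were the BUB1 log2 ratio (0.018) among cells scored G1, the NR4A2 log2 ratio (0.21) against cells with 0 of both genes, and, among cells scored S or G2M, the CCL5 log2 ratio (-3.49), the FN1 log2 ratio (-0.32), the IFI27 log2 ratio (-0.60), the COL1A1 log2 ratio (-4.62) and the FOS log2 ratio (-0.0084). The cause was not tested. PDIA4, CXCL8, HERPUD1, DNAJC10, ADM, LGALS1, LMAN1 and COL6A2 failed the rule under at least 4 of the settings. For the 26 list medians, 249 values across these settings stayed inside the original interval of the median and 11 fell outside. Some list medians changed sign against cells with 0 of both genes, such as that of axon guidance, from -0.11 to 0.06. No paired analysis was possible because each genotype has 1 library.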
